A study of Mus musculus with 56 samples.

Results

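The thymic tuft cell genes Pou2f3, Dclk1, Trpm5, Avil, Il25, Gnat3, Gng13, Plcb2, Chat and Alox5 were followed in thymic epithelial cells (TECs) during the shrinkage of the mouse thymus in pregnancy and its regrowth after birth. The 10 genes were taken by name as textbook tuft cell genes, with earlier results of these data known. They were matched by Ensembl ID, and all 10 were found among the 50600 genes of the expression tables. B6.SJL females mated with BALB/cJ males were compared with females that were not pregnant (NPC), and pups were removed at birth because lactation delays regrowth. EpCAM+CD45- cells were sorted into UEA1- cortical TECs (cTECs) and UEA1+ medullary TECs (mTECs), with 1 mouse per library, at gestation day 18 (D-2), on the day of birth (D0) and on the days that followed to D28. Of the 28 libraries per cell type, NPC had 3, as did D-2 and 4 time points after birth (D0, D3, D6, D12), and the other 10 time points (D1, D2, D4 and D5, D8 and D10, then D16, D20, D24 and D28) had 1. D0 to D12 are called early here (18 libraries) and D16 to D28 late (4 libraries).

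Tuft cells are rare chemosensory epithelial cells that occur in the gut, the airway and the thymic medulla. They carry a taste-type cascade that includes the G protein subunits Gnat3 (gustducin alpha) and Gng13 and the phospholipase Plcb2. The calcium released in this cascade opens the cation channel Trpm5. POU2F3 is the transcription factor on which the lineage depends, and the cells answer stimuli with the cytokine IL-25, with leukotrienes made by 5-lipoxygenase (Alox5) and with acetylcholine made by choline acetyltransferase (Chat). Dclk1 encodes a microtubule-associated kinase and Avil encodes advillin, an actin-binding protein of the tuft; both are widely used as markers. No tuft cell gate was used in the sort, so each value is a level in all sorted cells of a library, and fewer tuft cells cannot be told apart from less RNA per tuft cell.

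The promoter windows of 4 members are shown because 3 of them (Avil, Trpm5 and Plcb2) varied most closely with the other members across the cTEC libraries and the fourth (Alox5) was the member that passed the test from D-2 to D6. Each window is the 250 bases before the start of the RefSeq gene in GRCm38.p6, read 5′ to 3′ on the strand of the gene. Capitals mark matches on either strand to the octamer core, which is ATGCAAA and forms the first 7 bases of the octamer ATGCAAAT that POU2 family proteins bind, or to the GC box, the binding site of SP1 family factors, which is GGGCGG. The windows lie at chr10:127000459-127000708 (+) for Avil, chr7:143094643-143094892 (-) for Trpm5, chr2:118728439-118728688 (-) for Plcb2 and chr6:116461179-116461428 (-) for Alox5.
Avil: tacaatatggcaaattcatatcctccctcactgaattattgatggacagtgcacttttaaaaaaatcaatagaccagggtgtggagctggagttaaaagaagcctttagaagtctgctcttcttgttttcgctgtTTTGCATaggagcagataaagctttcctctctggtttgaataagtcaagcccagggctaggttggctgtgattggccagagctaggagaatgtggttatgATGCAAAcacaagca
Trpm5: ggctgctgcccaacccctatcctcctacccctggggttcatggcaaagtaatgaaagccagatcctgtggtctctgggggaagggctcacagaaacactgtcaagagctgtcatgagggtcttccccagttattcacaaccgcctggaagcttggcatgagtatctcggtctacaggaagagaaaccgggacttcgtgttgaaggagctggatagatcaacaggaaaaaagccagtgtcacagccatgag
Plcb2: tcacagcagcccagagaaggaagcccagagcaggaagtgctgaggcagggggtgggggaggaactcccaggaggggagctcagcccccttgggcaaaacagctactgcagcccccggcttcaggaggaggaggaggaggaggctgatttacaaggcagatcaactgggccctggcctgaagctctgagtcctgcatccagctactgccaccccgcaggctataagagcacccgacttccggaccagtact
Alox5: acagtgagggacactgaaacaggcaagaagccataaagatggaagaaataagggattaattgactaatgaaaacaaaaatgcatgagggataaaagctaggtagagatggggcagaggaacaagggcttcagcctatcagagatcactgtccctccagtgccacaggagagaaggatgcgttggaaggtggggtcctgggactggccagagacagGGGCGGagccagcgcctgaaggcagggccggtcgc

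Avil carried 2 octamer cores, the first base of which lay 115 and 15 bases before the start, and Alox5 carried 1 GC box 35 bases before the start. Trpm5 and Plcb2 held no match in these windows. Of the 10 members, 8 had a window in the table; among these 8, the full octamer was found in 0, the octamer core in 1 (Avil) and the GC box in 2 (Gng13 and Alox5). Over the 32536 distinct windows of the same length, the octamer was found in 1.62%, its core in 4.15%, 2 or more cores in 0.249% and the GC box in 33%. Pou2f3 and Il25 had no entry.

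In GRCm38 with the GENCODE M21 annotation, Pou2f3 (ENSMUSG00000032015) lies at chr9:43123939-43210369 (-), Dclk1 (ENSMUSG00000027797) at chr3:55242364-55539068 (+) and Avil (ENSMUSG00000025432) at chr10:127000709-127020994 (+). The taste-type genes lie at chr5:17962549-18019834 (+) for Gnat3 (ENSMUSG00000028777), chr17:25717171-25719406 (+) for Gng13 (ENSMUSG00000025739), chr2:118707517-118728438 (-) for Plcb2 (ENSMUSG00000040061) and chr7:143069153-143094642 (-) for Trpm5 (ENSMUSG00000009246). Il25 (ENSMUSG00000040770) lies at chr14:54932695-54935837 (+), Chat (ENSMUSG00000021919) at chr14:32408203-32465989 (-) and Alox5 (ENSMUSG00000025701) at chr6:116410077-116461178 (-). Trpm5, Avil and Gng13 overlap genes on the other strand (Tssc4, Tsfm and Chtf18), Chat overlaps Slc18a3 on its own strand and Gm2990 on the other, and Dclk1 overlaps 6 short or predicted genes. How reads in these overlaps were divided was not checked against the reads, so the values of these 5 genes carry that uncertainty.

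The libraries held between 4561208 and 108547384 expected counts, with a median of 17972566. When every library was read at the smallest of these totals, the number of genes with a count was 10268 to 18970 in the cTEC and 11887 to 22484 in the mTEC libraries, and 7 cTEC and 4 mTEC libraries held fewer than 15000 genes. A member was at 0 in 5 cTEC libraries, of which 4 were among the 7 with few genes, and in 10 mTEC libraries, of which 3 were among the 4 with few genes. The cell type labels were borne out by the markers: 9 of 11 mTEC markers (such as Aire, log2 fold change 4.36) were higher in mTECs and 8 of 9 cTEC markers (such as Prss16, -3.40) were higher in cTECs. The mTEC markers were not absent from the cTEC gate. Their summed level there was 6076 FPKM (fragments per kilobase of transcript, scaled to library size) against 15890 FPKM in mTECs. Most of this sum came from Ccl21a (4004 FPKM in cTECs and 11620 FPKM in mTECs) and Krt5 (1654 and 2854 FPKM).

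Levels of the members spanned more than an order of magnitude and were much alike in the cTEC and mTEC gates. Per length, Avil, Gng13 and Dclk1 were the most abundant, at a mean of 24.7 ± 13.4, 25.2 ± 13.6 and 17.5 ± 8.44 FPKM in cTECs and 21.2 ± 9.71, 24.5 ± 11.2 and 25.3 ± 7.13 FPKM in mTECs (SD, n = 28 each). Alox5 (15.1 ± 7.34 and 18.3 ± 12.7 FPKM) and Trpm5 (15.1 ± 8.11 and 12.8 ± 4.88 FPKM) followed, then Pou2f3 (8.54 ± 3.58 and 12.4 ± 3.73 FPKM), Plcb2 (4.74 ± 2.80 and 5.25 ± 3.00 FPKM) and Gnat3 (4.35 ± 3.79 and 6.48 ± 4.57 FPKM). Chat (2.08 ± 1.38 and 2.09 ± 2.46 FPKM) and Il25 (1.63 ± 1.33 and 0.868 ± 0.907 FPKM) were the lowest. Neighbours in this order differed by less than the larger SD of the pair, except Pou2f3 and the gene below it in both cell types and Plcb2 and Chat in mTECs. Pou2f3 was found in every library, between 4.62 and 22.7 FPKM in cTECs and between 5.64 and 24.6 FPKM in mTECs, whereas Il25 was at 0 in 4 cTEC and 10 mTEC libraries. At the median Il25 level of their cell type, these libraries would have held 12.4 to 60.2 counts in cTECs and 3.44 to 24.9 counts in mTECs.

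**Figure D1:**
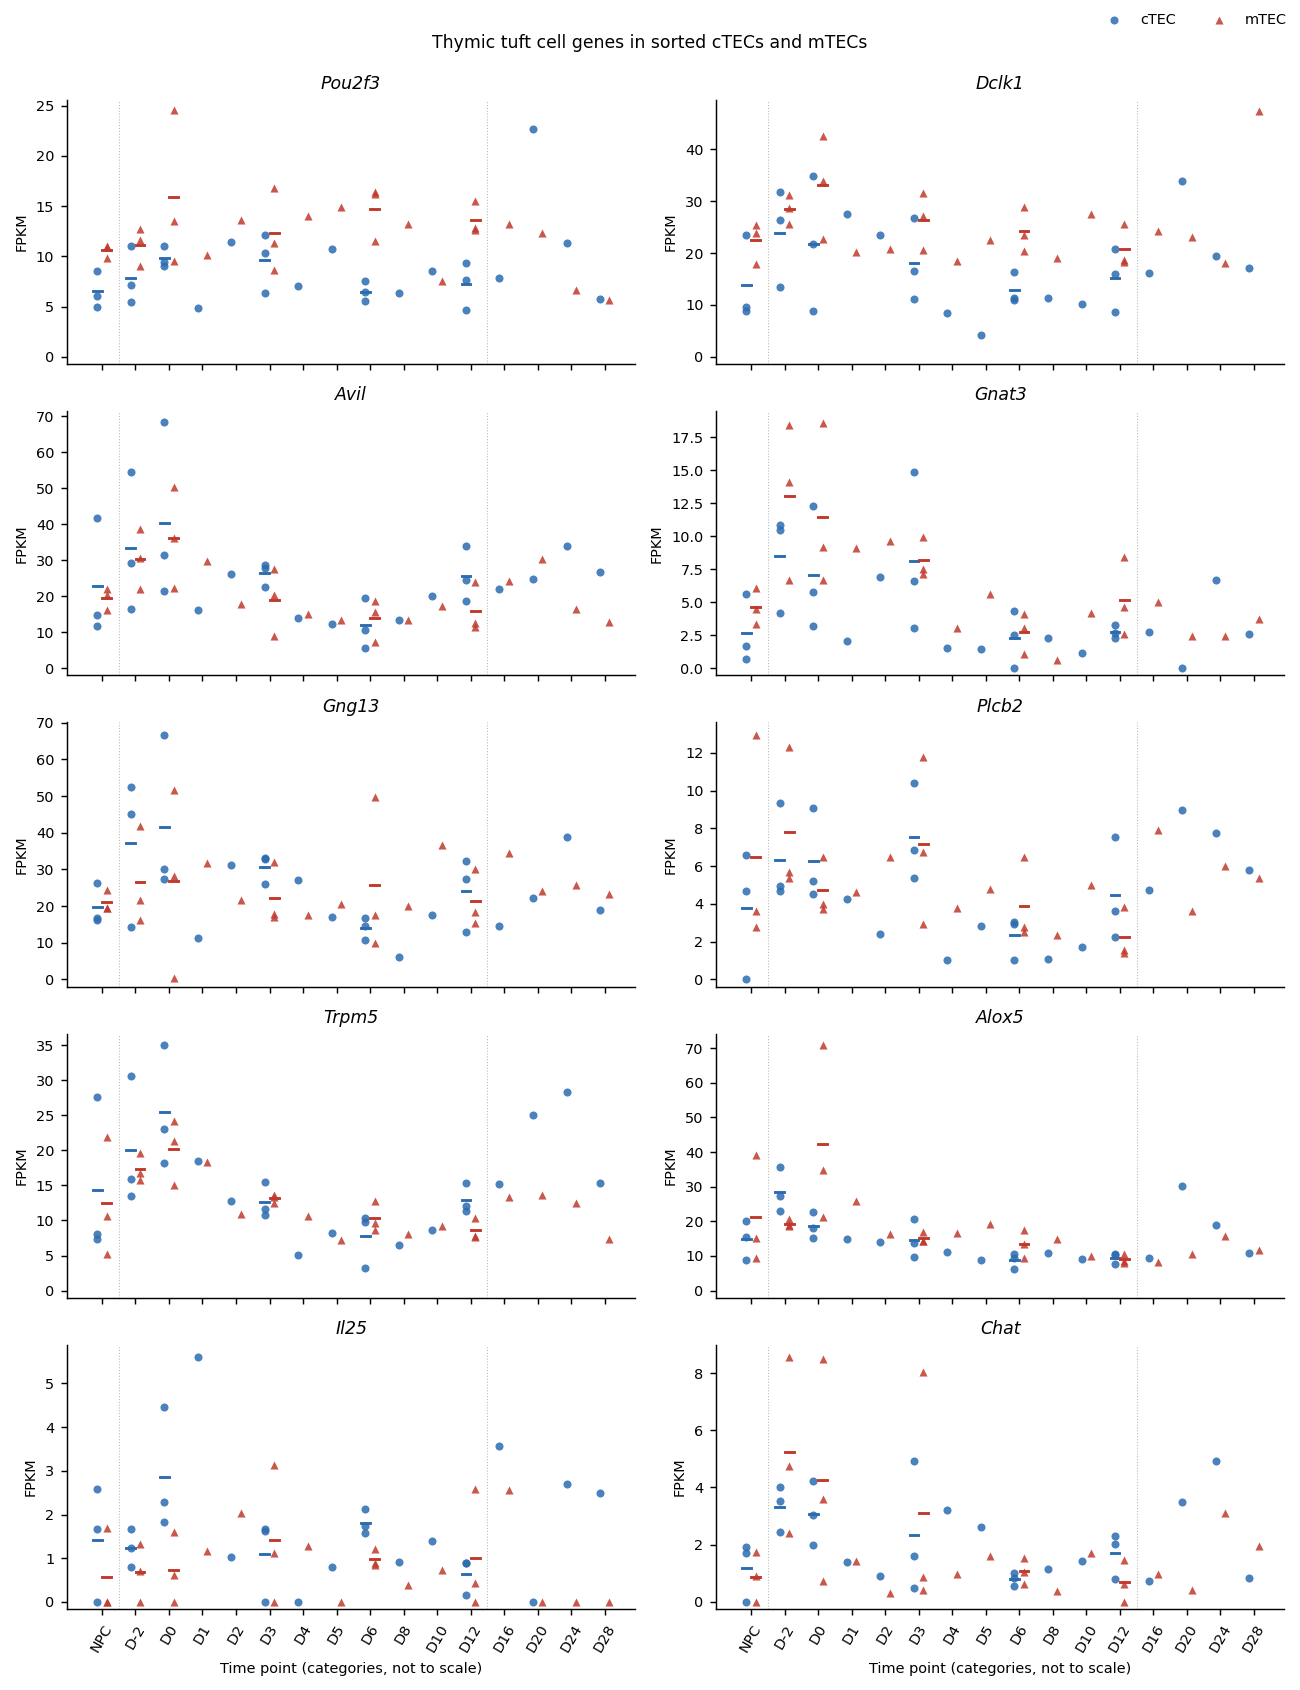
FPKM of the 10 tuft cell genes (y axis, a panel per gene) at each time point (x axis, categories not to scale), with circles for cTEC libraries, triangles for mTEC libraries and bars for the mean of 3 libraries. In cTECs the bar at D6 is the lowest for 9 of the 10 genes, and the ranges of the 2 cell types overlap for all 10.

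The first comparison asked whether the members belong to the medullary gate. None of the 10 was called between mTECs and cTECs over all 56 libraries, where called means, here and throughout, at least a 2-fold change in limma-voom at an adjusted p (Benjamini-Hochberg) no larger than 0.01, although 3897 of 18394 tested genes (21.2%) were. All 10 passed the filter on low values in this and every later fit. Dclk1 was higher in mTECs by 0.75 on the log2 scale (SE 0.10, adjusted p = 1.2e-08) and Pou2f3 by 0.44 (SE 0.12, adjusted p = 0.0023), both below the 2-fold limit. Dclk1 ranged from 4.18 to 34.9 FPKM in cTECs (median 16.3) and from 17.9 to 47.4 FPKM in mTECs (median 23.7), so the cell types overlapped. Il25 differed in the other direction, with a log2 fold change of -1.47 (SE 0.59, adjusted p = 0.033), and Gnat3 had a log2 fold change of 0.78 (SE 0.32, adjusted p = 0.041); neither passed.

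The log2 fold changes of the other 6 members had intervals that took in 0. They were Trpm5 -0.14 (adjusted p = 0.35), Avil -0.11 (adjusted p = 0.47), Gng13 0.05 (adjusted p = 0.89), Plcb2 0.22 (adjusted p = 0.41), Chat -0.46 (adjusted p = 0.31) and Alox5 0.14 (adjusted p = 0.40). For Trpm5 and Avil the 95% intervals, -0.38 to 0.10 and -0.36 to 0.13, leave out a 2-fold difference in either direction. The members' median was 0.09 against 0.03 over all genes, and 6 of 10 were higher in mTECs against 52.4% of all genes. Summed over the 10 members, mTECs held 129.2 ± 36.15 FPKM and cTECs 118.9 ± 51.0 FPKM, a ratio of 1.086. The ratio was 2.615 for the summed mTEC markers, a sum made up mostly of Ccl21a and Krt5. The share of the cTEC gate's values that came from medullary cells was not tested.

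Other tuft cell genes, from lists kept apart from the 10 members, were called in both directions. Of 13 tested regulators and markers, 3 were higher in mTECs, namely Spib (3.14), Gfi1b (1.95) and Kctd12 (1.43), of which Spib also acts in other mTECs and in B cells, and 0 were lower. Of 5 tested taste-type genes only the G protein subunit Gnb3 was called (1.51, SE 0.32, adjusted p = 0.000101). Of 5 eicosanoid enzymes, the cyclooxygenases split: Ptgs2 was higher in mTECs (2.89) and Ptgs1 lower (-1.06), while Alox5ap, the partner protein of 5-lipoxygenase, was at 31.3 FPKM in cTECs and 23.6 FPKM in mTECs and was not called.

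Receptors and relatives of the members completed the lists in this comparison. Of 5 receptor chains for IL-25, IL-4 and IL-13, only the shared chain Il2rg was higher in mTECs (2.13). Il17rb, the IL-25 receptor chain that tuft cells themselves carry, was at 2.25 FPKM in cTECs and 2.08 FPKM in mTECs. Among acetylcholine genes, the esterase Bche was higher in mTECs (1.22; 1 of 3 tested), and the transporters Slc18a3 and Slc5a7 were below the filter. Of 13 relatives of the members, 7 were higher in mTECs, such as the lipoxygenase Alox15 (3.05) and the POU factor Pou2f2 (3.10), and 0 were lower. Of the markers of other cells, those called higher and lower in mTECs numbered 7 and 1 of 12 for myeloid and dendritic cells, 3 and 0 of 3 for B cells, 3 and 0 of 3 for mast cells and basophils, 0 and 11 of 14 for thymocytes and 3 and 0 of 5 for fibroblasts and endothelium. Other medullary epithelial types gave 5 and 1 of 6 neuroendocrine, 5 and 0 of 7 cornified and 3 and 0 of 6 microfold markers.

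The second comparison asked where pregnancy left the members at gestation day 18. No member was called between D-2 and NPC in either cell type, and neither was any other gene: 0 of 17743 genes in mTECs (0%) and 0 of 15845 in cTECs (0%). At an unadjusted p under 0.05 the counts were 2267 in mTECs and 1564 in cTECs, edgeR called 0 in both, and DESeq2 called 165 in mTECs and 96 in cTECs with no member among them. The fitted log2 fold change was above 0 for all 10 members in each cell type, with a median of 0.58 in mTECs, where 60.4% of all genes were higher and their median was 0.17, and 1.07 in cTECs, where 53.5% of all genes were higher and their median was 0.03. The mean FPKM went the other way for Il25 in cTECs (1.42 in NPC and 1.24 at D-2) and for Alox5 in mTECs (21.26 and 19.35). The fitted sign turned in some alternatives for Il25 in cTECs (-0.93 to 2.43). In mTECs it turned for Gng13 (-0.2 to 0.36) and, in 1 alternative, for Dclk1 (-0.02 to 0.49). In mTECs the 3 D-2 libraries lay above the 3 NPC libraries for 4 members (Dclk1, Avil, Gnat3 and Chat), as they did for 6.28% of all genes. In cTECs this held for 2 members (Chat and Alox5) and for 6.54% of all genes.

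Gnat3 in mTECs was at 6.05, 3.36 and 4.46 FPKM in NPC and at 18.4, 14.1 and 6.64 FPKM at D-2. Alox5 in cTECs was at 8.98, 20.01 and 15.6 FPKM in NPC and at 35.6, 23.0 and 27.2 FPKM at D-2, which is 1.09 on the log2 scale (SE 0.33, adjusted p = 0.39). The D-2 libraries were the higher ones without overlap in both cases. Chat in mTECs went from 1.73, 0 and 0.91 FPKM to 4.74, 8.55 and 2.40 FPKM, a log2 fold change of 4.4 that was 1.31 without NPC replicate 3, the library at 0. The cTEC changes of Plcb2 (3.69) and Chat (3.61) rested likewise on NPC replicate 4, which held 2 counts of Plcb2 and 0 of Chat, and were 0.58 and 0.92 without it. Trpm5 in mTECs (1.04, adjusted p = 0.29) and Gnat3 in cTECs (2.2, adjusted p = 0.49) were the other members whose 95% interval left out 0, and neither passed.

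From D-2 to D6, across the change from shrinkage to regrowth, 9 of the 10 members had a fitted log2 fold change below 0 in cTECs. Alox5 fell and passed the test, at a log2 fold change of -1.78 (95% interval -2.40 to -1.16, SE 0.28, adjusted p = 0.0075), and was the only member called, in a comparison that called 213 of 15845 genes (1.34%). It was at 35.6, 23.0 and 27.2 FPKM at D-2 and at 9.51, 6.25 and 10.6 FPKM at D6. Every D6 library was below every D-2 library, and the D6 libraries lay beside those of D12 (7.82, 10.5 and 10.3 FPKM). Time points between them formed no gap: Alox5 was at 22.7, 18.0 and 15.2 FPKM at D0 and at 13.7, 20.7 and 9.78 FPKM at D3. The call was lost without any single library except D-2 replicate 4 (adjusted p of 0.0175 to 0.0444 for the 5 others), and over all 19 alternatives the log2 fold change stayed between -2.01 and -1.56 with adjusted p from 1.45e-05 to 0.0557, with a call in 9.

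Chat, which makes the transmitter acetylcholine, was at 3.54, 4.00 and 2.45 FPKM at D-2 and at 0.83, 0.56 and 1.00 FPKM at D6 in cTECs. The groups did not overlap, and the log2 fold change of -2.24 (SE 0.52) missed the limit at an adjusted p of 0.036. In the taste-type cascade, Plcb2 was at 4.96, 9.35 and 4.70 FPKM and then at 2.94, 1.00 and 3.04 FPKM (log2 fold change -1.95, SE 0.51, adjusted p = 0.054). Trpm5, the channel at its end, was at 15.9, 30.6 and 13.5 FPKM and then at 9.76, 3.26 and 10.3 FPKM (log2 fold change -1.47, SE 0.45, adjusted p = 0.084). The libraries of both genes were again apart. Gnat3 was at 10.5, 10.8 and 4.17 FPKM and then at 4.32, 0 and 2.53 FPKM, and its log2 fold change of -4.56 (SE 1.64, adjusted p = 0.13) was -1.13 without D6 replicate 4, the library at 0.

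Avil was at 29.2, 54.5 and 16.3 FPKM at D-2 and at 10.6, 5.55 and 19.4 FPKM at D6 in cTECs (log2 fold change -1.56, SE 0.41, adjusted p = 0.057), and here 1 D6 library exceeded 1 D-2 library. Gng13 (-0.97, adjusted p = 0.32), Dclk1 (-0.50, adjusted p = 0.31) and Pou2f3 (-0.33, adjusted p = 0.57) had smaller values of the same sign. Pou2f3, the regulator, was at 5.45, 10.99 and 7.11 FPKM and then at 5.58, 6.41 and 7.50 FPKM, with the D6 libraries inside the D-2 range. Il25 was the exception in sign (0.48, adjusted p = 0.79). The members' median was -1.52, against a median of -0.03 over all genes, of which 48% were higher, and 4 members (Trpm5, Plcb2, Chat and Alox5) did not overlap between the groups, as did 12.3% of all genes in that direction. This comparison and the one with NPC share the D-2 libraries.

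**Figure D2:**
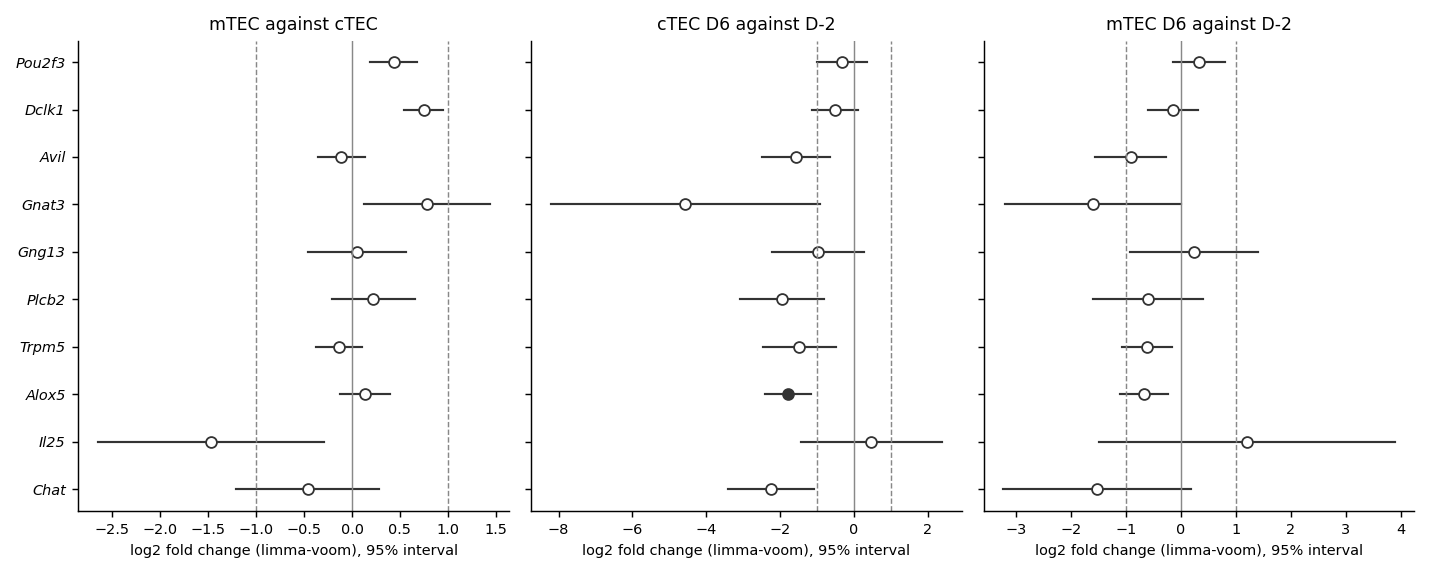
Log2 fold change of each member (x axis, each panel with its own scale) with its 95% interval from limma-voom for mTECs against cTECs, for D6 against D-2 in cTECs and for D6 against D-2 in mTECs. Filled points were called and dashed lines mark a 2-fold change; the single filled point is Alox5 in cTECs at -1.78.

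Genes of other cells moved over the same interval in the cTEC gate. Of 9 cTEC markers, 7 rose (Dll4 3.95, Prss16 3.71, Psmb11 3.67 and Ccl25 3.05 among them), and their summed level went from 2184 ± 562 to 11610 ± 600 FPKM (SD, n = 3 each). The 11 mTEC markers went from 6886 ± 1168 to 3892 ± 342 FPKM in sum, which was mostly Ccl21a and Krt5 over all cTEC libraries. The 11 had a median log2 fold change of -1.16, with 1 of them called lower (Cldn3, -2.05). The summed level of the 10 members went from a range of 104.0 to 215.7 FPKM to one of 50.5 to 78.3 FPKM. Whether the share of RNA from cTECs in these libraries changed, and its part in the lower member levels, was not tested. Alox5 and Plcb2 are also expressed by blood cells, whose part in these values was not tested. The 16 myeloid and dendritic markers summed to between 10.9 and 52.6 FPKM at D-2 and between 12.7 and 23.8 FPKM at D6, with Xcr1 at 0 in all 6 libraries, B cell markers to at most 8.87 FPKM, and mast cell and basophil markers to at most 2.64 FPKM. Thymocyte markers went from a sum of 27.2 to 29.8 FPKM at D-2 to one of 79.4 to 106.0 FPKM at D6, with 0 of 14 called.

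**Figure D3:**
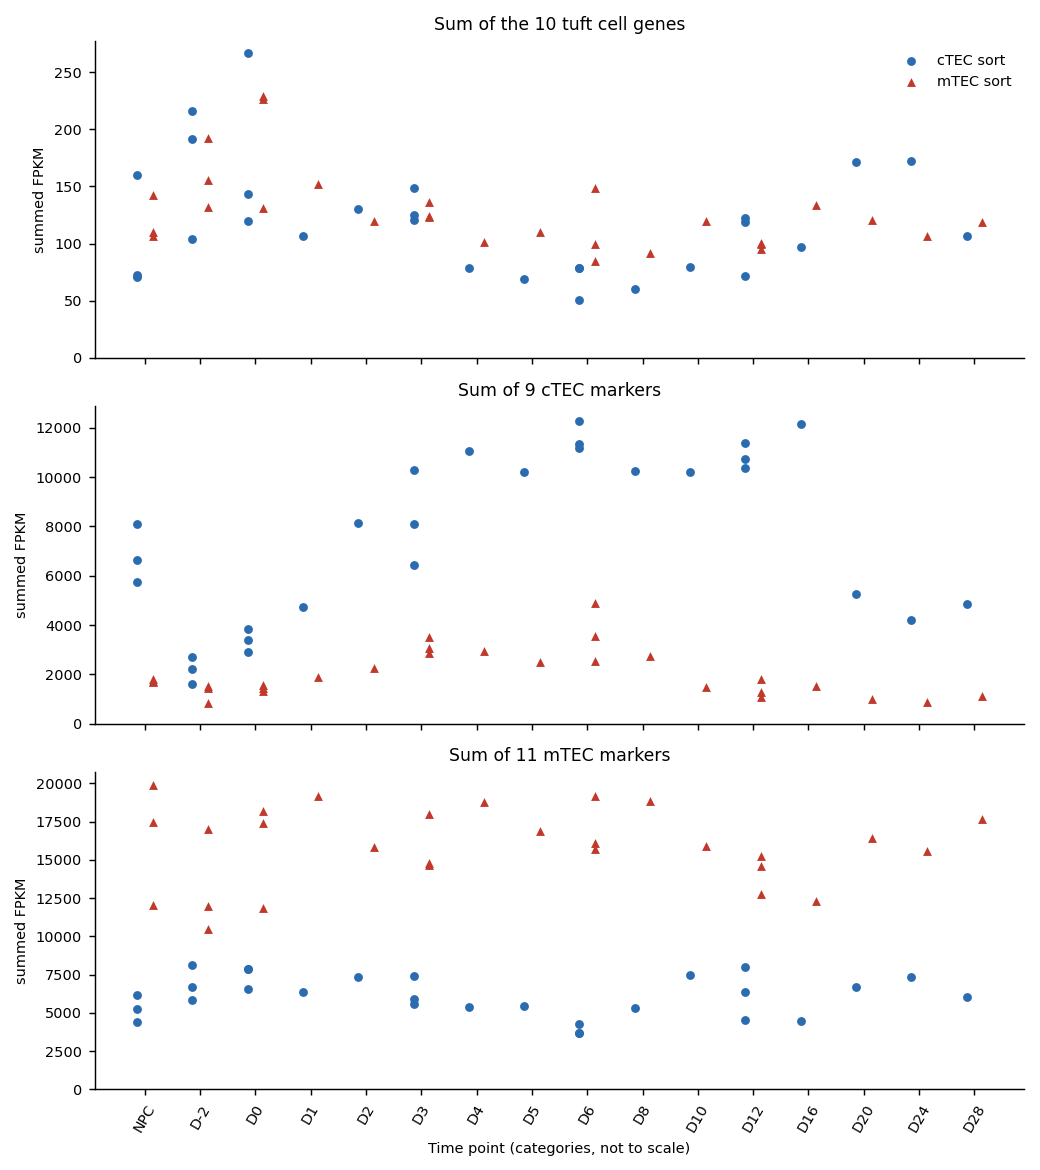
Summed FPKM per library (y axis) of the 10 members, of 9 cTEC markers and of 11 mTEC markers at each time point (x axis, categories not to scale), with circles for cTEC libraries and triangles for mTEC libraries. Of the time points with 3 libraries, cTECs at D6 had the lowest mean member sum (50.5 to 78.3 FPKM) and the highest mean cTEC marker sum (11610 FPKM).

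Other tuft cell genes were mostly not called in cTECs from D-2 to D6, and their list medians were below 0. Of 12 regulators and markers, 1 was called lower (Sox9, -1.35, adjusted p = 0.0068, a factor that also acts in many progenitor cells) and 0 higher, with a median of -1.40. The 5 eicosanoid enzymes had a median of -1.58 with 0 called; of these, Alox5ap was at -1.58 (adjusted p = 0.055) and Ptgs2 at -1.61 (adjusted p = 0.23). The 4 taste-type genes had a median of -1.39 with 0 called, and here the calcium channel Itpr3 (0.17) departed from Rgs13 (-1.72) and Gnb3 (-1.27). The cholinesterase gene Ache rose (2.81, SE 0.32, adjusted p = 0.0016), the only acetylcholine gene called of 3 tested; its product breaks acetylcholine down. The 5 receptor chains (median -0.08) and the 8 tested relatives of the members (median -0.29) held no call. Markers of other medullary epithelial types had medians below 0 as well, with 0 called: -1.82 over 5 cornified, -1.65 over 5 neuroendocrine and -1.02 over 6 microfold markers.

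In mTECs the same interval gave no call among the members, in a comparison that called 53 of 17743 genes (0.299%). Alox5 was at 18.8, 18.6 and 20.7 FPKM at D-2 and at 17.6, 9.35 and 13.5 FPKM at D6 (log2 fold change -0.67, 95% interval -1.10 to -0.23, adjusted p = 0.11). Avil was at 30.5, 38.6 and 22.03 FPKM and then at 18.6, 15.5 and 7.36 FPKM (-0.91, 95% interval -1.55 to -0.26, adjusted p = 0.13). Trpm5 was at 19.6, 16.7 and 15.7 FPKM and then at 12.8, 9.62 and 8.68 FPKM (-0.61, 95% interval -1.06 to -0.16, adjusted p = 0.14). In these 3 genes, as in Gnat3 (-1.59, adjusted p = 0.25) and Chat (-1.53, adjusted p = 0.30), every D6 library was below every D-2 library, as was the case for 12.9% of all genes. DESeq2 called 3 members lower here, Avil (-1.14, adjusted p = 0.0066), Gnat3 (-2.22, adjusted p = 0.0023) and Chat (-2.25, adjusted p = 0.0027), beside 470 genes in all.

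The remaining mTEC values were Plcb2 -0.60 (adjusted p = 0.48), Dclk1 -0.14 (adjusted p = 0.74), Gng13 0.24 (adjusted p = 0.83), Pou2f3 0.34 (adjusted p = 0.40) and Il25 1.21 (adjusted p = 0.61). Pou2f3 was at 9.07, 12.7 and 11.6 FPKM at D-2 and at 16.2, 11.52 and 16.4 FPKM at D6, with 2 of the D6 libraries above all 3 at D-2. Gng13 turned on 1 library, D6 replicate 1, at 49.9 FPKM beside 17.7 and 9.98 FPKM, and was -0.54 without it. Of the 10 members, 7 had a fitted value below 0, with a median of -0.60 against 0.02 over all genes, of which 51.5% were higher. The other tuft lists held no call (medians of -0.59 over 4 taste-type genes, -0.48 over 5 eicosanoid enzymes and -0.78 over 13 regulators and markers). Among other medullary epithelial types, 2 of 7 cornified markers were called lower (Krt10 -3.01 and Spink5 -2.81; median -2.11), while 6 microfold markers (median -1.10) and 6 neuroendocrine markers (median -0.25) held no call. Myeloid and dendritic markers in mTECs summed to between 163.1 and 233.7 FPKM at D-2 and between 26.95 and 159.6 FPKM at D6. Over all 28 mTEC libraries, most of this sum was S100a8 (mean 64.08 FPKM), Lyz2 (57.84 FPKM) and S100a9 (34.65 FPKM). The part of this difference in the Alox5 and Plcb2 values was not tested.

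Whether the cell types differed in this change was tested directly by an interaction term. No member was called, and 1 of 18394 genes was (0.00544%). The fitted difference (mTEC change less cTEC change) was above 0 for all 10 members and for 57.2% of all genes. Its median was 0.88 over the members and 0.14 over all genes. The sign turned in some alternatives for Gnat3, Chat and Il25. Among members, the interval left out 0 only for Alox5, with a difference of 1.13 between the mTEC and the cTEC change (SE 0.35, adjusted p = 0.22 in limma-voom). A difference between the cell types was thus not shown for any member.

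The last comparisons followed the members late after birth. In cTECs Plcb2 rose from the early to the late libraries by 1.29 on the log2 scale (95% interval 0.74 to 1.85, SE 0.27, adjusted p = 0.0043), among 223 of 15845 genes called (1.41%). It was at 4.74, 8.96, 7.75 and 5.81 FPKM at D16, D20, D24 and D28, against a lowest, median and highest value of 1.00, 3.33 and 10.4 FPKM in the 18 early libraries. The groups overlapped, since early libraries at D0, D3 and D12 reached the late range. The call held in 7 of 18 alternatives, with log2 fold changes of 0.82 to 1.52 and adjusted p from 0.00231 to 0.385. It was lost without the D24 library (adjusted p = 0.0137) or the D28 library (adjusted p = 0.0193), under edgeR (adjusted p = 0.299) and DESeq2 (adjusted p = 0.188), and when D12 was counted as late (adjusted p = 0.169). Each late time point was a single library per cell type, so time and library cannot be told apart there.

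No other member was called in the late cTEC libraries. Dclk1 (0.63, SE 0.21, adjusted p = 0.057) and Alox5 (0.58, adjusted p = 0.18) had intervals just above 0, and Alox5 was at 9.40, 30.3, 18.9 and 10.9 FPKM from D16 to D28, with the D20 library the highest. That library also held the highest cTEC value of Pou2f3 (22.7 FPKM) while Gnat3 and Il25 were at 0 in it. In all, 8 of 10 members had a fitted value above 0 (median 0.36, against -0.04 over all genes, of which 47.4% were higher). Beside them, the eicosanoid enzyme Ptgs2 was called higher (1.77; 1 of 5), as were the mTEC markers Aire (2.07) and Cd80 (3.08), whereas the cTEC regulator Foxn1 was called lower (-1.28). The 4 taste-type genes (median 1.23) and the 12 regulators and markers (median 0.50) held no call. The 16 myeloid and dendritic markers summed to between 18.1 and 56.6 FPKM in the late and between 7.98 and 51.9 FPKM in the early libraries, and their part in the Plcb2 value was not tested.

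In mTECs, no member was called between late and early libraries, with 11 of 17743 genes called (0.062%), or between late and NPC libraries, with 0 genes called (0%; 1019 at an unadjusted p under 0.05, 0 in edgeR and 4 in DESeq2). The late values of Pou2f3 were 13.2, 12.3, 6.62 and 5.64 FPKM from D16 to D28, a log2 fold change of -0.59 against the early libraries (SE 0.22, adjusted p = 0.14). The values at D24 and D28 were the lowest of all 28 mTEC libraries. Alox5 had a value of -0.61 (SE 0.25, adjusted p = 0.16) and Il25 one of -3.28 (adjusted p = 0.18), and Dclk1 reached its highest mTEC level, 47.4 FPKM, at D28. Members had a median of -0.12 in the first of these comparisons (4 of 10 higher, against 48.8% of all genes) and 0.04 in the second (5 of 10 higher, against 56.7% of all genes). The interaction of cell type with late against early called no member and 1 of 18394 genes (0.00544%). Its fitted value was above 0 for 3 of 10 members (median -0.47), against 50.9% of all genes (median 0.01). Plcb2 was at -0.99 (adjusted p = 0.39), Pou2f3 at -0.92 (adjusted p = 0.35), Alox5 at -1.10 (adjusted p = 0.27) and Dclk1 at -0.52 (adjusted p = 0.43).

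Across the 6 time points with 3 libraries, D-2 and D0 held the highest means. In cTECs the highest mean was at D0 for 5 members, at D-2 for 4 and at D3 for 1, and the lowest at D6 for 9 and at D12 for 1 (Il25). In mTECs the highest was at D0 for 6, at D-2 for 3 and at D3 for 1, and the lowest at D12 for 5, at NPC for 3 and at D6 for 2. Some of these ranks rest on small differences between scattered libraries. Gng13 in mTECs was at 26.75 ± 25.74 FPKM at D0 and at 26.56 ± 13.46 FPKM at D-2 (SD, n = 3 each). For Avil in cTECs the order was D0 (40.4 ± 24.7 FPKM), D-2 (33.4 ± 19.4), D3 (26.3 ± 3.35), D12 (25.7 ± 7.72), NPC (22.8 ± 16.5) and D6 (11.9 ± 7.03 FPKM; SD, n = 3 each), so that each neighbour lay within the larger SD of the pair. Alox5 in cTECs ran from D-2 (28.6 ± 6.45) through D0 (18.6 ± 3.82), NPC (14.8 ± 5.55), D3 (14.7 ± 5.53) and D12 (9.55 ± 1.503) to D6 (8.80 ± 2.28 FPKM), and of these neighbours only D-2 and D0 stood apart by more than the larger SD of the pair. The spread between replicates differed among the members. The median coefficient of variation between replicates of Avil in cTECs was 58.7%, against 20.4% for genes of a like level. Pou2f3 in mTECs was at 17.8% against 31.3%. Dclk1, Trpm5, Il25 and Alox5 were also below genes of a like level in mTECs, and the other members were above them. In cTECs only Il25 and Chat were below.

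Members varied together in cTECs more than in mTECs. Over the 28 cTEC libraries the Pearson correlation of log2(FPKM + 0.5) between 2 members had a median of 0.45 over the 45 pairs (range -0.13 to 0.86, 41 positive), with Avil and Trpm5 the closest pair. Over the 28 mTEC libraries the median was 0.17 (range -0.46 to 0.75, 33 positive), with Avil and Trpm5 again the closest and Pou2f3 and Gng13 the most opposed. Against the mean of the other 9 members, Avil (0.87), Trpm5 (0.86) and Plcb2 (0.76) were closest in cTECs and Il25 (0.18) least. In mTECs Gnat3 (0.68) and Avil (0.61) were closest, while Pou2f3 (-0.00) and Gng13 (-0.19) showed no positive relation. The points share libraries, depth and cell makeup within a library, and these values are descriptions only.

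**Figure D4:**
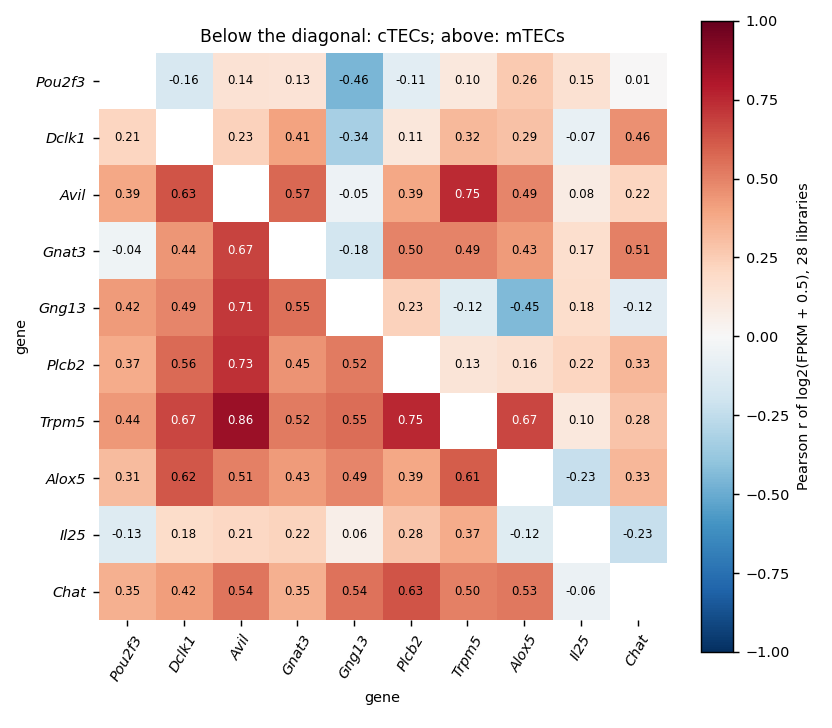
Pearson correlation of log2(FPKM + 0.5) between members over the 28 cTEC libraries (below the diagonal) and the 28 mTEC libraries (above it), on a colour scale from -1 to 1. Positive pairs number 41 of 45 in cTECs and 33 of 45 in mTECs, and Avil with Trpm5 is the highest pair in both (0.86 and 0.75).

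Among the 17732 other genes of mTECs, those whose level was most like the mean of the members were Trib1 (Pearson r of 0.73), Klf4 (0.70), Klf6 (0.69), Bmx (0.69), Krt10 (0.68), Psapl1 (0.68), Dusp1 (0.67), Araf (0.67), Plk2 (0.66) and Rab6a (0.66), over 28 libraries. Bmx is itself on the list of tuft cell markers. Over the 28 cTEC libraries, a comparison added after the mTEC result was seen, the closest of 15835 genes included Sh2d7 (0.89), Alox5ap (0.87), Cldn3 (0.84), Elf3 (0.84), Lcn2 (0.83), Spib (0.81), Aox4 (0.81), Hepacam2 (0.81) and Lrmp (0.79). Of these, Sh2d7, Alox5ap, Spib and Lrmp are on the tuft lists and Cldn3 is an mTEC marker. The genes named here for mTECs and those named for cTECs shared 0 names.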

How the data were processed

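RNA was measured by stranded polyA sequencing in 56 libraries of sorted TECs, which were grouped by the cell type and time point of their labels. Per the labels, the authors processed the reads with bcl2fastq (2.20), Trimmomatic (0.35), STAR (2.5.1b) and RSEM (1.2.28) on GRCm38; the annotation release is not given in the sources used here. The deposited tables hold, for each library, RSEM expected counts (not normalized; between 91.4% and 98.0% of them whole), FPKM and TPM for 50600 genes. Both FPKM and TPM were computed by the authors from these expected counts, per length and library. Of the gene IDs, 50376 matched GENCODE M21, which gave the symbols. The sources state 1 mouse per library.

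The expected counts, rounded to the nearest whole number, were scaled by TMM. Genes whose mean FPKM over all 28 libraries of the cell type (of either type, where both were fitted) reached 0.5 were tested with limma-voom (limma 3.58.1, edgeR 4.0.16, R 4.3.3), two-sided, with Benjamini-Hochberg adjustment over all genes tested and a call at a fold of at least 2 and an adjusted p of at most 0.01. Intervals are 95% intervals of the fit. Fold changes are given for all members in mTECs against cTECs and in D6 against D-2, and elsewhere for members whose interval leaves out 0. Alternatives were edgeR, DESeq2 (1.42.0), limma-trend on log2(FPKM + 0.5), log2(FPKM + 0.1) and log2(TPM + 0.5), no TMM, no filter, sample quality weights, looser limits, a replicate block, and leaving out each library. A fit without the libraries with few genes was added after the data were seen. The limma-voom fit was tested on simulated data for D6 against D-2 in cTECs only. It called 4 of 100 genes changed 2-fold, 46 of 100 changed 4-fold and 0 of the unchanged genes. The changed genes were drawn only from those above a lower limit on the mean count. These shares may thus not hold for members with few counts. A member that was not called may therefore still have changed. Depth sets the precision of the low genes: expected counts carry counting error on top of the spread between mice.

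The members and all lists were chosen with earlier results of these data known. From each list, at most the 4 genes with the largest called change were named, or, where none was called, at most the 3 with the highest mean FPKM in mTECs. Alox5ap, Il17rb, Slc18a3 and Slc5a7 in mTECs against cTECs were named for their roles after their values were seen. Ccl21a, Krt5, S100a8, Lyz2 and S100a9 were named for their part in the list sums, also after their values were seen. A gene among those most like the members in cTECs is not reported here. Promoter windows came from a RefSeq table of GRCm38.p6 and were cut at the gene start. Figures were drawn with matplotlib (3.10.9) in Python (3.11.15).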

Additional observations from a re-analysis of the deposited data

Results flagged for a closer look

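Il25 in the late mTEC libraries held a value far from the others. It was at 2.56 FPKM at D16 and at 0 at D20, D24 and D28, so the whole range of the group lay between the D16 library and the rest. This was the 1 value that stood apart among the 20 groups of 4 libraries examined, where the rule is set to flag about 1 group in 20 by chance. That rate is for replicates of 1 condition. Here each library was from a different day, and ties at 0 make such a gap easier to reach.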

How the results depend on the processing

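The 2 member calls kept their sign under every alternative but not their side of the limits. For D6 against D-2 in cTECs, the number of members called (1 as reported) was 2 at an adjusted p of at most 0.05 and 2 under DESeq2 (Alox5 and Chat), 0 under each limma-trend fit, 0 with sample quality weights, 0 without the libraries with few genes, and 0 to 1 when a library was left out. For late against early in cTECs it was 0 under edgeR, DESeq2, each limma-trend fit, sample quality weights and no filter, 0 with D12 counted as late or without the libraries with few genes, and 0 to 1 when a late library was left out. For mTECs against cTECs it was 1 at an adjusted p of at most 0.05 (Il25), in a comparison that called 21.2% of all genes already at 0.01. For D6 against D-2 in mTECs it was 3 under DESeq2. Causes of these differences were not tested.

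Of 1910 member values under an alternative, 128 had the opposite sign and 0 of those were called. Among the values given above, Gng13 in mTECs against cTECs became -0.08, -0.12 and -0.16 under limma-trend (FPKM + 0.5, FPKM + 0.1 and TPM + 0.5) and -0.31 over the 36 libraries of time points with 3. Gng13 in mTECs at D6 became -0.24, -0.24 and -0.29 under limma-trend and -0.45 with weights, with -0.54 to 0.65 when a library was left out. Dclk1 in mTECs at D6 ranged from -0.3 to 0.03 when a library was left out, and Alox5 late in cTECs became -0.07 with weights.

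The number of genes called moved more than the members: for cTECs at D6, 213 as reported, 757 under DESeq2, 690 at an adjusted p of at most 0.05 and 60 to 135 when a library was left out; for cTECs late, 223 as reported, 45 under edgeR, 94 under DESeq2, 1045 with weights and 0 with D12 counted as late; for mTECs at D6, 53 as reported, 91 under edgeR and 470 under DESeq2. Same-numbered cTEC and mTEC libraries share only a number in the sources, and their deviations from the group means correlated at -0.14 to 0.13 (median 0.025). A replicate block was also fitted. Within a cell type it joined libraries by their order within each time point. It thus tied different mice and cannot test a pairing by mouse. Where both cell types were fitted, it joined same-numbered libraries. With the block, 1 member was called in cTECs at D6, 1 in cTECs late and 0 elsewhere, the same counts as without it. The genes called in mTECs at D6 went to 145. Il25, Chat and Gnat3 were at 0 in 14, 3 and 2 libraries; at the median level of their cell type, these would have held 3.44 to 60.2, 35.3 to 106.1 and 109.5 to 140.2 counts.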
